A study of Homo sapiens with 18 samples.

Results

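In HEK293T cells that expressed a YTHDF protein fused to the RNA-editing enzyme ADAR, 71 genes carried less editing on polysomes than in total RNA with each of the 3 fusion proteins. They were 71 of the 3560 genes that had an editing score above 0 in both fractions with YTHDF1-ADAR, YTHDF2-ADAR and YTHDF3-ADAR. A gene was included when its editing odds ratio per site, polysome over total RNA, was -0.5 or lower on the natural log scale with every fusion. The genes were thus chosen by their measured editing in these libraries, so their editing values are given as a description and are not tested here.

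Adenosine methylation at N6 (m6A) is the most common internal mark of mRNA, and the cytoplasmic readers YTHDF1, YTHDF2 and YTHDF3 bind it. In the TRIBE assay a reader is fused to the deaminase domain of ADAR, which converts adenosines near the bound site to inosine, read as G in sequencing. An edited transcript therefore keeps a mark of having met the reader. Polysomes are mRNAs loaded with several ribosomes, so the polysome fraction holds transcripts that are being translated, whereas total RNA also holds nuclear, untranslated and decaying transcripts.

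RNA from pooled sucrose-gradient fractions with more than 2 ribosomes was set against total RNA of the same line, in each of the YTHDF1-ADAR, YTHDF2-ADAR and YTHDF3-ADAR lines. HEK293T is a human embryonic kidney line. All groups shared 24 h of doxycycline at 1 µg/mL, which induces the fusion, and 10 min of cycloheximide at 100 µg/mL, which holds ribosomes on mRNA. Each of the 6 groups had 3 libraries made from 150 ng of RNA after removal of ribosomal RNA, 18 in all, and no library without a fusion was among them. Whether a line is a clone or a pool, and whether replicates were separate cultures, the labels do not say, so the p-values measure the spread between these libraries, which may be technical.

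Libraries held 42699303 to 67549159 counts. YTHDF1 was highest in YTHDF1-ADAR cells and YTHDF2 in YTHDF2-ADAR cells. For YTHDF3 the libraries of YTHDF3-ADAR cells, at 68.7 to 89.1 CPM (counts scaled to a common library size with TMM factors, which correct for composition), overlapped those of YTHDF1-ADAR cells at 46.3 to 79.4 CPM. ADARB1, which encodes an ADAR deaminase, ranged from 1080 to 1651 CPM in YTHDF3-ADAR cells, against 32.4 to 40.5 CPM in YTHDF2-ADAR and 198 to 268 CPM in YTHDF1-ADAR cells. The HEK293T markers NEFL, NEFM, CDH2 and VIM stood above 42 CPM in every library, PAX2 and LHX1 between 1.79 and 9.60 CPM. None of 9 markers of blood, liver and muscle exceeded 2.55 CPM in any library.

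Editing per site is the authors' deposited score of a gene divided by its number of edited sites, in percent, and there is 1 value per fusion and fraction over all replicates, with no error of its own. The median over the 71 genes was 0.742% on polysomes and 1.75% in total RNA with YTHDF1-ADAR. With YTHDF2-ADAR the medians were 0.678% on polysomes and 1.44% in total RNA, and with YTHDF3-ADAR they were 1.10% on polysomes and 2.16% in total RNA. Over all 3560 scored genes the medians in total RNA were close to these, at 1.83%, 1.24% and 1.95% with YTHDF1-, YTHDF2- and YTHDF3-ADAR. In total RNA the 71 genes thus lay near the middle of the scored genes, and on polysomes, by selection, below it: the medians of all scored genes there were 1.41%, 1.14% and 1.61%.

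The median log odds ratio of the 71 genes was -0.82 with YTHDF1-ADAR, -0.80 with YTHDF2-ADAR and -0.69 with YTHDF3-ADAR. Among all scored genes it was -0.27, -0.11 and -0.18 in the same order, so the background itself lay below 0. Of the scored genes, 32.5% met the limit of -0.5 with YTHDF1-ADAR, 18.5% with YTHDF2-ADAR and 17.5% with YTHDF3-ADAR. A further 482 genes met it with exactly 2 fusions and 1262 with 1, while 21 genes lay at 0.5 or higher with all 3. The lowest ratio of a gene belonged to YTHDF1-ADAR in 32 genes, to YTHDF2-ADAR in 26 and to YTHDF3-ADAR in 13. Just inside the limit stood RNF141 with a highest ratio of -0.5032, CTBP2 with -0.5033 and UCP2 with -0.5094. Just outside it stood ANAPC5 with -0.4999, NARS1 with -0.4947 and STMN1 with -0.4915.

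**Figure D1:**
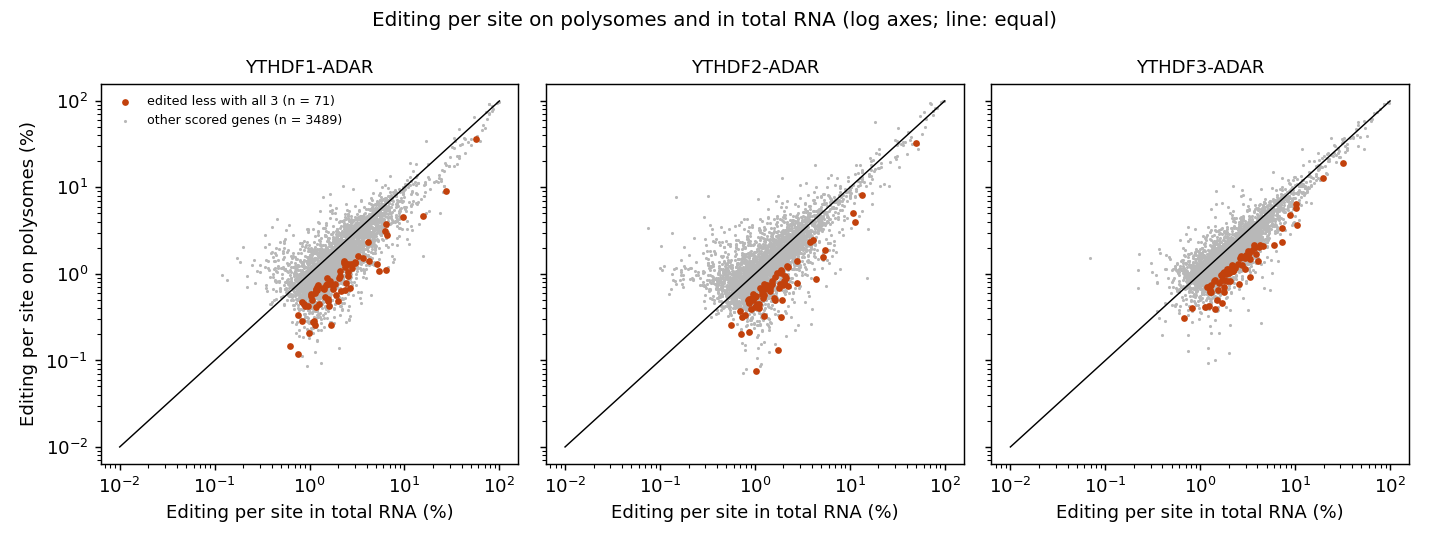
Editing per site on polysomes (vertical, %) against total RNA (horizontal, %), both on log axes, 1 point per gene, for each fusion. The 71 selected genes lie below the line of equal editing in each panel because the rule required it, and their spread along the horizontal axis falls within that of the other 3489 scored genes.

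Many values rest on few sites. The 71 genes had a median of 14 sites summed over the fusions, against 18 over the other scored genes. With YTHDF1-ADAR 15 of the 71 genes rested on 1 site, 21.1% against 11.7% of scored genes. With YTHDF2-ADAR it was 22, 31.0% against 22.9%, and with YTHDF3-ADAR 2, 2.82% against 5.93%. NDRG1, a stress-response gene, and BRICD5 had 1 site with each fusion. At least 3 sites with every fusion were present in 30 genes. In the authors' deposited table the adjusted p of the editing difference was under 0.05 for 3 of the 71 genes with YTHDF1-ADAR, 1 with YTHDF2-ADAR and 9 with YTHDF3-ADAR, against 1.80%, 1.15% and 3.26% of the scored genes. No gene passed with all 3 fusions, 2 passed with 2, 9 with 1 and 60 with none. The authors' p-values concern the same editing differences by which the 71 genes were chosen. Here and below they describe single genes and give no separate support, and shares above those of the scored genes follow from the selection. The depth behind the editing scores is unknown, so no interval can be given.

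The lowest mean log odds ratios belonged to genes with few sites. TRNAU1AP, which takes part in the handling of selenocysteine tRNA, was edited at 0.0756% on polysomes and 1.02% in total RNA with YTHDF2-ADAR, at 1 site. With YTHDF1-ADAR it had 0.332% on polysomes and 0.748% in total RNA, and with YTHDF3-ADAR 0.615% on polysomes and 1.80% in total RNA, at 3 sites each. DTNBP1, which encodes dysbindin of BLOC-1, a complex for the biogenesis of lysosome-related organelles, also had its lowest value at 1 site. This was with YTHDF2-ADAR, at 0.134% on polysomes and 1.77% in total RNA. WDR61, a subunit of the Ski complex that feeds mRNA to the exosome, had 0.120% on polysomes and 0.755% in total RNA with YTHDF1-ADAR at 1 site. In all 3 genes the lowest ratio rested on a polysome value at the bottom of the range of the 71 genes.

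HIPK3, a homeodomain-interacting protein kinase, had more sites behind it and was 1 of the 2 genes that passed the authors' own test with 2 fusions. Its editing was 1.09% on polysomes and 5.45% in total RNA with YTHDF1-ADAR at 8 sites, where the authors' deposited table gives an adjusted p of 4.26e-07. With YTHDF3-ADAR it was 1.49% on polysomes and 3.35% in total RNA at 12 sites, with an adjusted p of 0.000106 in the authors' deposited table. With YTHDF2-ADAR it was 0.694% on polysomes and 1.81% in total RNA at a single site. The other gene was SETD2, the histone H3 lysine 36 methyltransferase. Its values were 1.34% on polysomes and 3.00% in total RNA with YTHDF1-ADAR, and 0.824% on polysomes and 2.05% in total RNA with YTHDF3-ADAR. The authors' deposited table gives it adjusted p-values of 0.0255 and 0.0348 with these fusions.

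STRN, a scaffold of the STRIPAK phosphatase complex, had the most sites of the 71 genes, 102 over the 3 fusions. Its editing was 1.34% on polysomes and 2.35% in total RNA with YTHDF1-ADAR, 1.22% on polysomes and 2.19% in total RNA with YTHDF2-ADAR, and 1.86% on polysomes and 3.45% in total RNA with YTHDF3-ADAR. The 3 log odds ratios of STRN, -0.57, -0.59 and -0.64, were close to each other. PRKAR2B, a regulatory subunit of protein kinase A, had 53 sites and ratios of -0.77, -0.56 and -0.61. DNAJB4, an HSP40 co-chaperone, had 52 sites and ratios of -0.73, -0.54 and -0.81. PTBP2, a neuronal splicing regulator, had 50 sites and ratios of -1.29, -0.65 and -0.78. The authors' deposited table gives it an adjusted p of 5.57e-07 with YTHDF3-ADAR, and it did not pass with YTHDF1-ADAR or YTHDF2-ADAR.

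In 44 of the 71 genes editing in total RNA stayed under 3% with every fusion, 62.0% against 60.9% of all scored genes. Editing reached 5% with all 3 fusions in 4 genes, GPM6A, LIN7B, EFNB3 and PLEKHH3. GPM6A, a neuronal membrane glycoprotein at chr4:175632934-176002664 on the minus strand (GRCh38), was by far the most edited. It had 36.2% on polysomes and 57.0% in total RNA with YTHDF1-ADAR, 32.8% on polysomes and 49.4% in total RNA with YTHDF2-ADAR, and 19.4% on polysomes and 31.7% in total RNA with YTHDF3-ADAR. EFNB3, the membrane ligand ephrin-B3, had 4.72% on polysomes and 15.9% in total RNA with YTHDF1-ADAR, and 6.36% on polysomes and 10.3% in total RNA with YTHDF3-ADAR. LIN7B, a scaffold of cell junctions and synapses, had 9.09% on polysomes and 27.3% in total RNA with YTHDF1-ADAR, at 1 site. Over the 5 genes for neuronal and surface proteins the medians in total RNA were 15.9%, 11.5% and 10.3% with YTHDF1-, YTHDF2- and YTHDF3-ADAR. These were the highest of the roles into which the 71 genes were sorted. The roles were assigned after values were seen, so this order is a description and sets no role apart.

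Editing in total RNA was highest with YTHDF3-ADAR in 50 of the 71 genes, or 70.4%, against 54.7% of all scored genes. It was highest with YTHDF1-ADAR in 16 genes and with YTHDF2-ADAR in 5. Editing in total RNA entered the ratios by which the 71 genes were chosen, so these shares are a description only. ADARB1 RNA differed between the lines as given above, and its part in this order was not tested.

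All 71 genes encode proteins and they lie on 22 chromosomes. Their median exon length was 5428 bases, against 5798 in the other scored genes. Exons of another gene overlap on the same strand in 12 of them, 16.9% against 16.5% of all scored genes. For these 12, which include CHURC1-FNTB, PPP1CB, STRN, EGLN1, COPS5, DNAJB4 and RPL5, reads could be shared with the other gene. Opposite-strand overlap was present in 27 genes, 38.0% against 47.7% of scored genes, and 19 genes have a named pseudogene, 26.8% against 15.9% of scored genes. RPL5 alone has 35 named pseudogenes, CTBP2 has 10 and TUBB 9. The counts and sites of every gene with a named pseudogene are less certain.

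The families searched gave few hits. Of the scored genes, 2 of 53 chromatin regulators were among the 71 (SETD2 and the histone H3 lysine 4 demethylase KDM5C), 3 of 126 ubiquitin enzymes (TRIM23, UBE2D2 and RNF141), 3 of 62 signalling kinases (PRKAR2B, HIPK3 and MAP4K5) and 2 of 48 phosphatase genes (PPP1CB and PPP1R2). Cytosolic ribosomal proteins gave 1 of 11, RPL5, RAB GTPases and their regulators 1 of 35, RAB12, and nuclear respiratory-chain subunits 1 of 24, ATP5PF. None of 57 C2H2 zinc finger genes, 58 SLC transporters, 52 RNA helicase, SR and hnRNP genes, 40 TMEM genes, 16 genes with detained introns, 14 m6A writers, erasers and readers or 8 decay genes was included. The 71 genes make up 1.99% of all scored genes.

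RNA abundance was not used to choose the genes, although it comes from the same libraries. These are bulk samples, so a change in the share of cells that carry a transcript and in its amount per cell cannot be told apart. On polysomes the RNA of most of the 71 genes stood higher than in total RNA. In YTHDF1-ADAR cells 26 of 71 rose and 1 fell (adjusted p under 0.05 in edgeR's quasi-likelihood test, with Benjamini-Hochberg adjustment). Of all 26804 genes tested in these cells, 9.26% rose and 11.9% fell. In YTHDF2-ADAR cells 20 of 71 rose and 1 fell, where 6.71% of all genes rose and 9.04% fell. In YTHDF3-ADAR cells 32 of 71 rose and 4 fell, where 8.01% of all genes rose and 12.1% fell. Among the scored genes 16.8% rose and 8.45% fell with YTHDF1-ADAR, 12.7% and 5.26% with YTHDF2-ADAR, and 15.5% and 9.19% with YTHDF3-ADAR. For genes that rose, the scored genes thus lay above all genes tested, and the 71 genes above the scored genes, at 36.6%, 28.2% and 45.1%.

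With the replicate within each line as a block, 41 of the 71 genes rose and 1 fell with YTHDF1-ADAR, where 18.7% of all genes rose and 18% fell. With YTHDF2-ADAR 34 rose and 1 fell in that fit, against 15.5% and 15% of all genes, and with YTHDF3-ADAR 40 rose and 5 fell, against 13.6% and 20.1%. Fitted on the 6 libraries of YTHDF3-ADAR cells alone, 0 of the 71 genes rose and 0 fell at the same threshold, where 0 of all genes tested rose and 219 fell. In YTHDF1-ADAR cells 16 genes rose without total RNA replicate 1, without total RNA replicate 2 or without polysome replicate 3, where 5.22%, 5% and 5.16% of all genes rose. In YTHDF2-ADAR cells the count was 9, 6 and 4 without total RNA replicates 1, 2 and 3, and 10 and 3 without polysome replicates 1 and 3. The shares of all genes that rose in those fits were 5.09%, 2.99% and 2.39%, and 3.17% and 2.94%, so without polysome replicate 3 the 71 genes, at 4.23%, lay near the background. In YTHDF3-ADAR cells it was 15 and 20 without total RNA replicates 2 and 3, and 13 without polysome replicate 2, where 3.74%, 4.94% and 3.24% of all genes rose. Without total RNA replicate 1 of that line 44 rose, against 14.4% of all genes.

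The median log2 fold change of the 71 genes was 0.37 with YTHDF1-ADAR, 0.30 with YTHDF2-ADAR and 0.34 with YTHDF3-ADAR. Over all genes tested it was 0.03, 0.03 and -0.05, and over the scored genes 0.14, 0.14 and 0.06. Without TMM factors the medians over all genes tested moved to 0.46, 0.40 and 0.25 and those of the 71 genes to 0.79, 0.66 and 0.64, and 64, 55 and 53 of the 71 rose and 0 fell. Of all genes 40.6%, 33.9% and 25.3% rose in that fit, and the changes given here are on the TMM scale. Fold changes above 0 were found in 64, 64 and 61 of the 71 genes, and 60 genes were above 0 in all 3 lines. The 21 genes with more editing on polysomes with all 3 fusions lay on the other side, with medians of -0.77, -0.48 and -0.57. Across 3537 scored genes that passed the expression filter, the correlation between the editing log odds ratio and the RNA log2 fold change was negative with each fusion. Pearson's r was -0.27 with YTHDF1-ADAR, -0.17 with YTHDF2-ADAR and -0.41 with YTHDF3-ADAR. This is a description across genes, which are not independent and whose 2 values come from the same libraries.

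**Figure D2:**
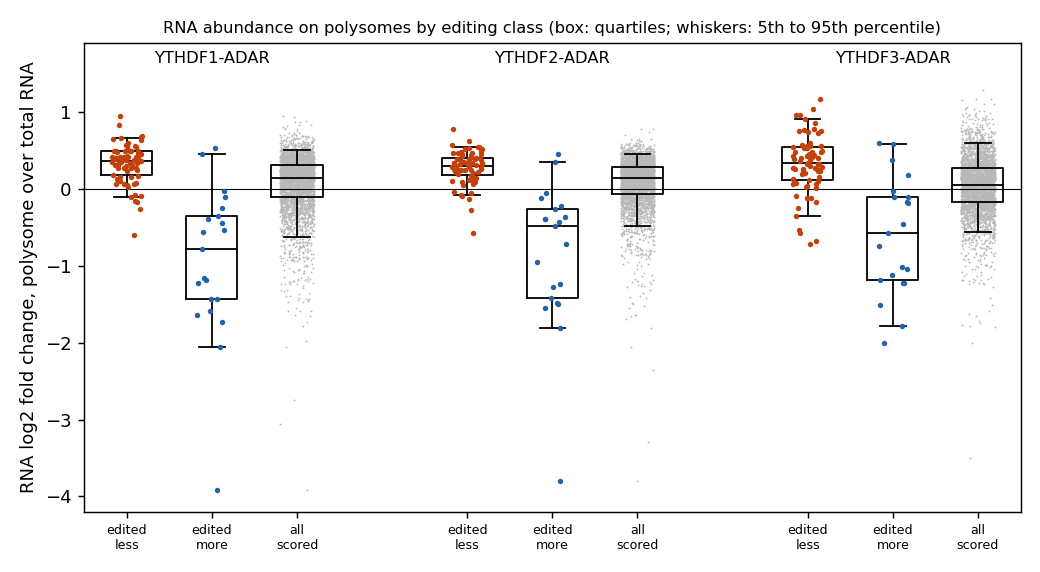
RNA log2 fold change, polysome over total RNA, by line for the 71 genes edited less on polysomes, the 21 genes edited more, and all scored genes that passed the expression filter. Points are genes, boxes are quartiles with the median, and whiskers reach the 5th and 95th percentiles. The medians of the 71 genes, 0.37, 0.30 and 0.34, lie above those of the scored genes, 0.14, 0.14 and 0.06.

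Every polysome library stood above every total RNA library in 49 of the 71 genes in YTHDF1-ADAR cells, where 26.4% of all genes tested did so. In YTHDF2-ADAR cells this held for 46 genes against 25.4% of all genes. In YTHDF3-ADAR cells it held for 27 genes against 10.6%. The reverse, every polysome library below every total RNA library, held for 2, 1 and 3 genes, against 22.3%, 21.5% and 15.2% of all genes. RNA rose in all 3 lines for 19 genes, in 2 lines for 6 and in 1 line for 9, where 3.70% of all genes rose in all 3. Of the genes that rose in all 3 lines, 9 have a named pseudogene, so their counts are less certain. They are ATP5PF, HPRT1, PPP1R2, COPS5, EGLN1, AP1S2, SUCLA2, CTBP2 and CDC42. With the replicate block 30 genes rose in all 3 lines, against 8.47% of all genes. These shares are over all genes tested, whose median log2 CPM was 2.46, against 5.31 in the 71 genes and 5.60 in the scored genes. The scored genes rose more often than all genes tested, as given above. The excess of the 71 genes over the scored genes may thus be smaller, and was not computed for these counts. No gene rose in 1 line and fell in another, and 33 were not called in any line, of which the replicate block called 14 in at least 1 line. Of the genes that rose, 5 with YTHDF1-ADAR, 0 with YTHDF2-ADAR and 10 with YTHDF3-ADAR were at least 1.5-fold higher, and OSBPL8 with YTHDF3-ADAR was at least 2-fold higher.

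Genes that rose were found among those with many and with few sites, and made up a larger share of those with many. Of the 30 genes with at least 3 sites with every fusion, 15 rose with YTHDF1-ADAR, 11 with YTHDF2-ADAR and 18 with YTHDF3-ADAR. Of the 41 genes with fewer sites, 11, 9 and 14 rose in the same lines. Median log2 fold changes were 0.40, 0.33 and 0.47 in the 30 genes and 0.31, 0.28 and 0.24 in the 41. This difference was not tested. Of all genes tested, 9.26%, 6.71% and 8.01% rose.

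**Figure D3:**
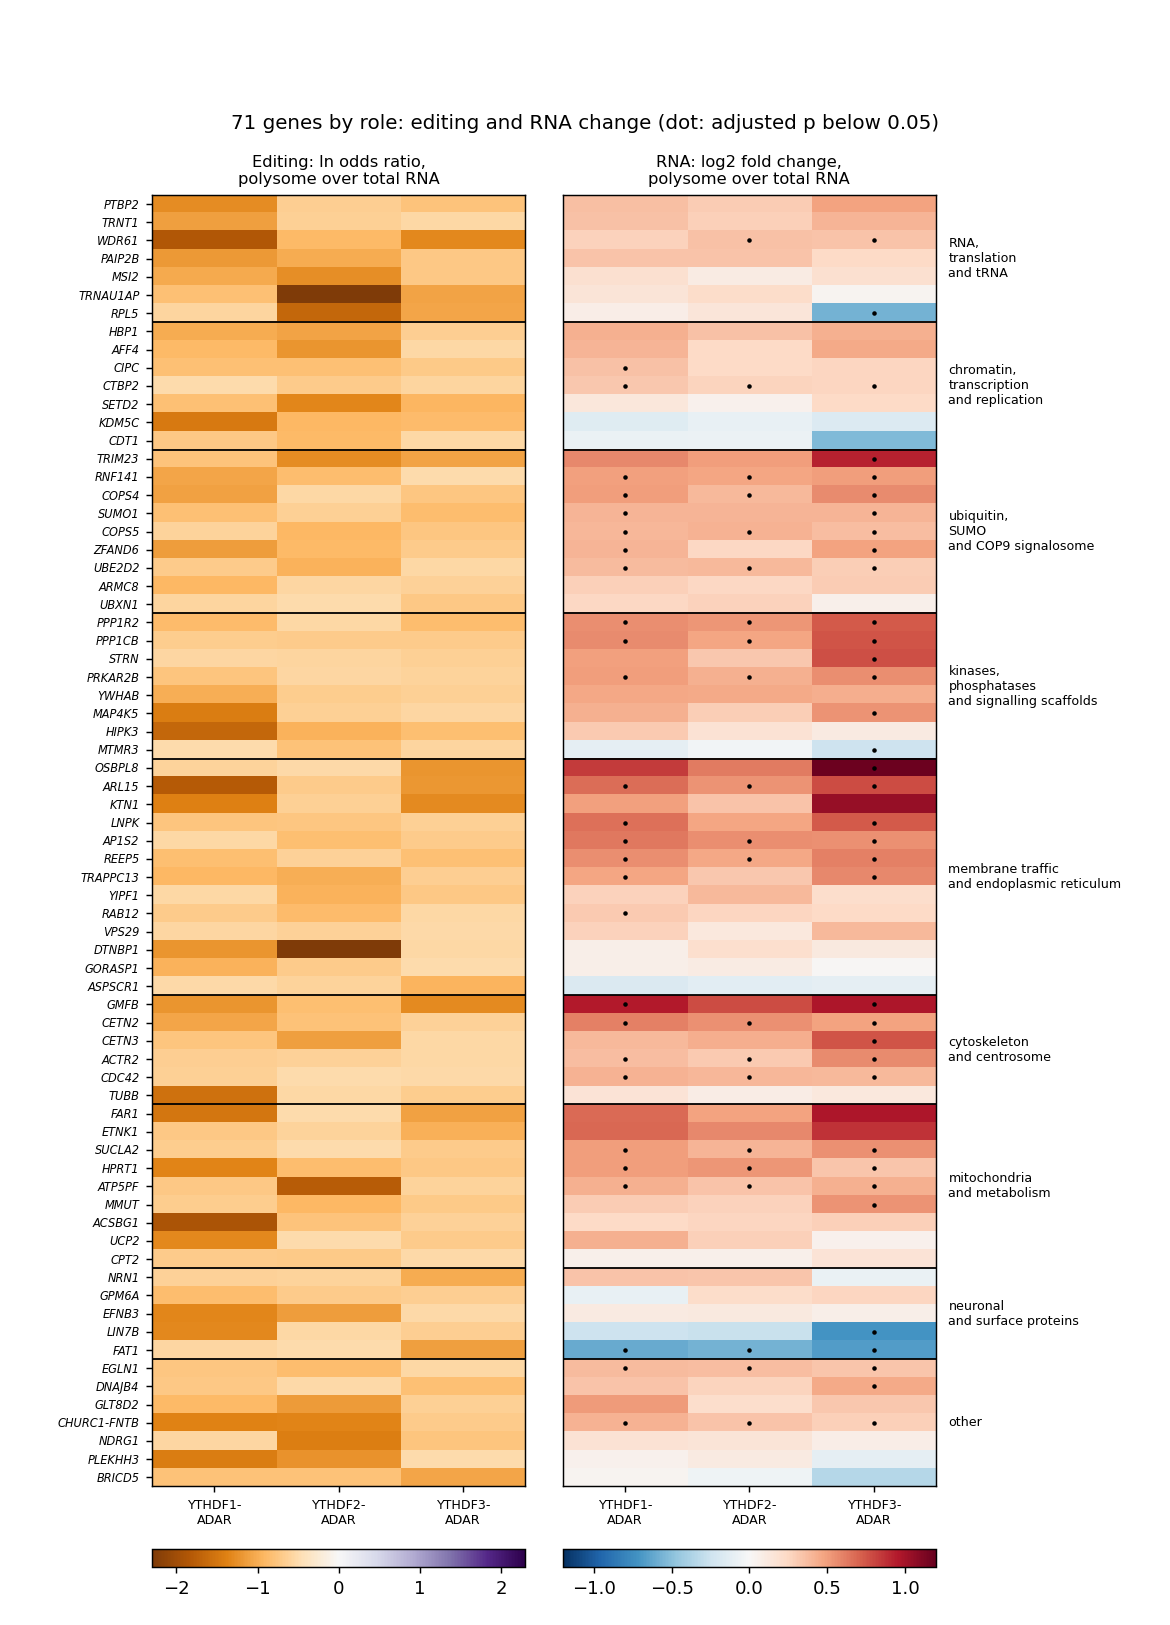
The 71 genes by role, with the editing log odds ratio (left, natural log) and the RNA log2 fold change (right), both polysome over total RNA, in columns for YTHDF1-, YTHDF2- and YTHDF3-ADAR cells. Dots mark adjusted p below 0.05 for RNA. Editing is low in every cell by selection, and most RNA cells are above 0 in each line, with fold changes above 0 in 64, 64 and 61 genes.

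By role, membrane traffic and the endoplasmic reticulum formed the largest group, with 13 genes. Of these, 6 rose with YTHDF1-ADAR, 3 with YTHDF2-ADAR and 6 with YTHDF3-ADAR, and 0 fell. The replicate block gave 8, 6 and 8. Over the 71 genes 36.6%, 28.2% and 45.1% rose, and 57.7%, 47.9% and 56.3% with the block. Over all genes tested it was 9.26%, 6.71% and 8.01%, and 18.7%, 15.5% and 13.6% with the block. The roles were assigned after values were seen, so counts by role are a description and set no role apart. ARL15, an ARF-like small GTPase at chr5:53883942-54310582, had the highest mean change among the genes that rose in all 3 lines. It had 17.8, 18.5 and 21.3 CPM on polysomes and 11.1, 10.8 and 14.2 CPM in the total RNA of YTHDF1-ADAR cells. In YTHDF2-ADAR cells ARL15 had 17.8, 18.6 and 22.0 CPM on polysomes and 12.3, 14.6 and 13.3 CPM in total RNA. In YTHDF3-ADAR cells it had 15.7, 21.0 and 18.9 CPM on polysomes and 11.3, 8.93 and 12.0 CPM in total RNA. The fractions did not overlap in any line. The log2 fold changes were 0.67 ± 0.15, 0.54 ± 0.15 and 0.78 ± 0.15 (SE), with adjusted p of 0.005, 0.021 and 0.0019 by edgeR. Its editing in YTHDF1-ADAR cells was 1.10% on polysomes and 6.35% in total RNA, at 1 site.

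AP1S2, a subunit of the clathrin adaptor AP-1, also rose in all 3 lines, with 53.2 ± 3.7 CPM on polysomes and 34.3 ± 5.7 CPM in the total RNA of YTHDF1-ADAR cells (SD, n = 3 each). REEP5, which shapes tubular endoplasmic reticulum, had 70.2 ± 4.4 CPM on polysomes and 47.8 ± 0.99 CPM in total RNA of the same cells (SD, n = 3 each), and fold changes of 0.55, 0.46 and 0.61 on the log2 scale. OSBPL8, a lipid-transfer protein of the endoplasmic reticulum, had the highest single value of the 71 genes, 1.17 ± 0.33 (SE) in YTHDF3-ADAR cells with an adjusted p of 0.019 by edgeR. Its libraries spread widely, with 95.3, 127 and 105 CPM on polysomes and 67.9, 30.9 and 46.1 CPM in the total RNA of YTHDF3-ADAR cells. In YTHDF1-ADAR cells OSBPL8 had 102, 96.0 and 113 CPM on polysomes and 30.3, 68.7 and 74.8 CPM in total RNA, and its change did not pass the test there. The call in YTHDF3-ADAR cells was lost without the expression filter and without total RNA replicate 2 or 3 or polysome replicate 2.

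KTN1, the kinesin-binding membrane protein kinectin, had a similar spread and was not called in any line. It had 113, 169 and 156 CPM on polysomes and 121, 34.2 and 56.9 CPM in the total RNA of YTHDF3-ADAR cells, so the fractions overlapped. For OSBPL8, KTN1, GMFB and STRN alike, replicate 1 was the lowest total RNA library of YTHDF1-ADAR cells and of YTHDF2-ADAR cells. In YTHDF3-ADAR cells it was the highest, though for STRN replicate 3 lay close to it. In all 3 lines replicate 1 also stood apart from the other total RNA libraries over genes at large, as given below.

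The 9 genes of ubiquitin, SUMO and the COP9 signalosome included 6 that rose with YTHDF1-ADAR, 4 with YTHDF2-ADAR and 7 with YTHDF3-ADAR, and 7, 7 and 8 with the replicate block. Over all genes tested 9.26%, 6.71% and 8.01% rose, and 18.7%, 15.5% and 13.6% with the block. This role too was assigned after values were seen. COPS4 and COPS5 are subunits of the COP9 signalosome, which removes NEDD8 from cullin ubiquitin ligases, and both rose in all 3 lines. COPS4 had 45.6 ± 3.5 CPM on polysomes and 32.2 ± 3.0 CPM in the total RNA of YTHDF1-ADAR cells (SD, n = 3 each). Its editing with YTHDF3-ADAR was 0.841% on polysomes and 1.77% in total RNA at 23 sites, with an adjusted p of 0.00358 in the authors' deposited table. With YTHDF1-ADAR and YTHDF2-ADAR the editing of COPS4 did not pass the authors' test. UBE2D2, a ubiquitin-conjugating enzyme, and RNF141, a RING-domain protein, rose in all 3 lines as well, by 0.38, 0.39 and 0.29 for UBE2D2 and by 0.49, 0.47 and 0.50 for RNF141 on the log2 scale. TRIM23, a ubiquitin ligase with an ARF domain, rose by 0.92 ± 0.24 on the log2 scale (SE) in YTHDF3-ADAR cells (edgeR, adjusted p = 0.015) and had 0.58 and 0.50, which did not pass, in YTHDF1- and YTHDF2-ADAR cells. Its editing with YTHDF2-ADAR, 0.785% on polysomes and 2.78% in total RNA, carried an adjusted p of 0.0258 in the authors' deposited table. With YTHDF1-ADAR and YTHDF3-ADAR the editing of TRIM23 did not pass the authors' test.

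Among the 8 kinases, phosphatases and signalling scaffolds, 3 rose with YTHDF1-ADAR, 3 with YTHDF2-ADAR and 5 with YTHDF3-ADAR, and 6, 4 and 5 with the replicate block. Over all genes tested 9.26%, 6.71% and 8.01% rose, and 18.7%, 15.5% and 13.6% with the block. PPP1CB, a catalytic subunit of protein phosphatase 1, and PPP1R2, an inhibitor of that phosphatase, rose together. PPP1CB had 179, 233 and 206 CPM on polysomes and 134, 100 and 130 CPM in the total RNA of YTHDF3-ADAR cells, with no overlap, and rose by 0.76 ± 0.15 (SE, edgeR adjusted p = 0.0023). PPP1R2 rose by 0.56, 0.53 and 0.73 on the log2 scale in YTHDF1-, YTHDF2- and YTHDF3-ADAR cells, each with an SE of 0.10. PRKAR2B rose by 0.50, 0.43 and 0.56. HIPK3 had RNA fold changes of 0.31, 0.18 and 0.11 that did not pass the test; with the replicate block its change with YTHDF1-ADAR, 0.34, passed (edgeR adjusted p = 0.049). MTMR3, a phosphoinositide phosphatase, fell in YTHDF3-ADAR cells, by 0.25 on the log2 scale, but stood at 0.057 without TMM factors, where it did not pass.

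**Figure D4:**
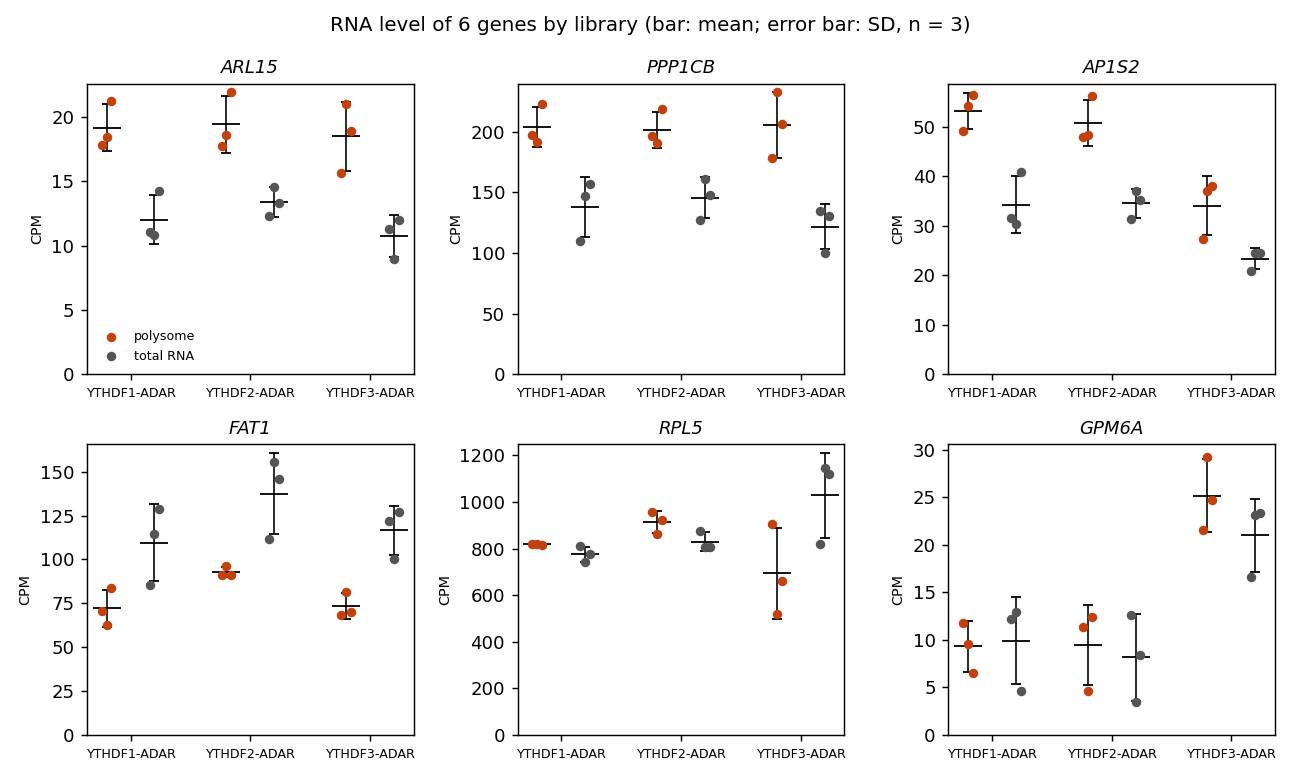
RNA level (CPM, linear axis from 0) of 6 genes in every library, polysome left of total RNA in each line; points are libraries, horizontal lines are means and error bars SD over 3 libraries. ARL15, PPP1CB and AP1S2 are higher on polysomes without overlap, and FAT1 is lower in all 3 lines. The mean of RPL5 is lower on polysomes in YTHDF3-ADAR cells although the fractions overlap, and GPM6A overlaps between fractions.

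Of the 6 cytoskeleton and centrosome genes, 4 rose with YTHDF1-ADAR, 3 with YTHDF2-ADAR and 5 with YTHDF3-ADAR. Over all genes tested 9.26%, 6.71% and 8.01% rose. ACTR2, a subunit of the actin-nucleating Arp2/3 complex, and CETN2, a centrin of the centrioles, rose in all 3 lines. GMFB, a relative of cofilin that acts on Arp2/3, had the highest value in YTHDF1-ADAR cells, 0.95 ± 0.27 (SE, edgeR adjusted p = 0.021). Its libraries there had 100, 108 and 121 CPM on polysomes and 32.7, 63.9 and 73.9 CPM in total RNA. TUBB, a beta-tubulin and the most abundant of the 71 genes per exon length, had fold changes of 0.16, 0.09 and 0.13 and was not called.

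Of the 9 genes of mitochondria and metabolism, 3 rose with YTHDF1-ADAR, 3 with YTHDF2-ADAR and 4 with YTHDF3-ADAR, and 6, 5 and 5 with the replicate block. Over all genes tested 9.26%, 6.71% and 8.01% rose, and 18.7%, 15.5% and 13.6% with the block. ATP5PF, a subunit of ATP synthase, SUCLA2, a subunit of succinyl-CoA ligase, and HPRT1, which salvages purines, rose in all 3 lines. HPRT1 had 130, 140 and 138 CPM on polysomes and 100, 97.1 and 92.1 CPM in the total RNA of YTHDF1-ADAR cells, and rose by 0.50, 0.53 and 0.33 on the log2 scale. ACSBG1, an acyl-CoA synthetase with the lowest editing ratio of the 71 genes in YTHDF1-ADAR cells (0.255% on polysomes and 1.68% in total RNA), was not called in any line. With the replicate block it rose in all 3 lines, by 0.24, 0.26 and 0.28 on the log2 scale (edgeR adjusted p = 0.038, 0.033 and 0.022).

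Of the 7 genes of RNA, translation and tRNA, 0 rose in YTHDF1-ADAR cells and 1 rose in each of the other lines, WDR61; the replicate block gave 2, 2 and 3. TRNAU1AP, first by mean editing ratio, had 26.0, 28.1 and 24.4 CPM on polysomes and 26.1, 23.9 and 20.7 CPM in the total RNA of YTHDF1-ADAR cells, and the fractions overlapped. The 7 genes of chromatin, transcription and replication had 2, 1 and 1 that rose, and 3, 3 and 3 with the replicate block. For both roles, the shares over all genes tested were 9.26%, 6.71% and 8.01%, and 18.7%, 15.5% and 13.6% with the block. CTBP2, a transcriptional corepressor, rose in all 3 lines by 0.32, 0.27 and 0.26. SETD2 had fold changes of 0.14, 0.05 and 0.24 and KDM5C of -0.15, -0.09 and -0.16, none of which passed. CHURC1-FNTB, a readthrough locus whose reads could be shared with its component genes, and EGLN1, the prolyl hydroxylase that marks HIF for degradation, rose in all 3 lines.

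Of the 5 genes for neuronal and surface proteins, 0 rose in any line, where 9.26%, 6.71% and 8.01% of all genes rose. With the replicate block NRN1, which encodes neuritin, rose by 0.34 with YTHDF1-ADAR and 0.33 with YTHDF2-ADAR on the log2 scale (edgeR adjusted p = 0.0067 and 0.0084). FAT1, a giant protocadherin at chr4:186587794-186726722, fell in all 3 lines and was the only one of the 71 genes to do so. On polysomes FAT1 had 70.6, 62.4 and 83.4 CPM in YTHDF1-ADAR cells, against 85.4, 114 and 129 CPM in total RNA. In YTHDF2-ADAR cells it had 91.1, 96.3 and 91.1 CPM on polysomes and 111, 156 and 146 CPM in total RNA. In YTHDF3-ADAR cells it had 68.4, 81.7 and 69.8 CPM on polysomes and 122, 100 and 127 CPM in total RNA, and the fractions overlapped in none of the lines. It fell by 0.60, 0.57 and 0.67 on the log2 scale, each with an SE of 0.16, and edgeR gave adjusted p of 0.013, 0.021 and 0.0073. FAT1 also had 59 of its 67 sites with YTHDF1-ADAR. Its editing there was 3.73% on polysomes and 6.36% in total RNA, and the authors' deposited table gives an adjusted p of 1.32e-07. The editing difference of FAT1 did not pass the authors' test with YTHDF2-ADAR or YTHDF3-ADAR. For FAT1 both editing and RNA were thus lower on polysomes. Without TMM factors its RNA change was -0.19, -0.22 and -0.36 in YTHDF1-, YTHDF2- and YTHDF3-ADAR cells and did not pass in any of them. Single libraries also ended its call: total RNA replicate 3 or polysome replicate 2 left out with YTHDF1-ADAR, and total RNA replicates 2 or 3 or polysome replicates 1 or 3 with YTHDF2-ADAR.

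LIN7B fell in YTHDF3-ADAR cells, to 2.61 ± 0.32 CPM on polysomes, against 4.29 ± 0.76 CPM in total RNA (SD, n = 3 each), a log2 change of -0.71 ± 0.21 (SE, edgeR adjusted p = 0.023). This call was lost without TMM factors, without the expression filter and without total RNA replicate 2 or 3 or polysome replicate 1 or 2. GPM6A, with the highest editing, had fold changes of -0.09, 0.22 and 0.26 and was not called. In YTHDF3-ADAR cells it had 21.6, 29.3 and 24.7 CPM on polysomes and 16.6, 23.1 and 23.4 CPM in total RNA. The abundance of these genes was low: per exon length LIN7B and GPM6A ranked among the 3 lowest of the 71.

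RPL5, a protein of the large ribosomal subunit, had the smallest p of the 71 genes for a difference of its RNA change between lines. It had 905, 518 and 661 CPM on polysomes and 819, 1146 and 1122 CPM in the total RNA of YTHDF3-ADAR cells, where it fell by 0.57 on the log2 scale (edgeR adjusted p = 0.022) although the fractions overlapped. The call was lost without TMM factors and when total RNA replicate 2 or 3 or polysome replicate 2 or 3 was left out. In YTHDF1-ADAR cells it had 818, 821 and 814 CPM on polysomes and 809, 742 and 775 CPM in total RNA. The difference of the change, YTHDF3-ADAR minus YTHDF1-ADAR, was -0.64 ± 0.23 (SE) with an unadjusted p of 0.0124 and an adjusted p of 1.00. Against YTHDF2-ADAR it was -0.71 ± 0.23 (SE) with an unadjusted p of 0.00677 and an adjusted p of 1.00.

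The change on polysomes was not called different between lines for any of the 71 genes. For YTHDF2-ADAR minus YTHDF1-ADAR, YTHDF3-ADAR minus YTHDF1-ADAR and YTHDF3-ADAR minus YTHDF2-ADAR, 0 of 71 were called by edgeR or DESeq2, as were 0% of all genes by edgeR. At an unadjusted p under 0.05 by edgeR there were 0, 1 and 1 genes, RPL5 in both cases.

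In total RNA the shares of the 71 genes called between lines lay near the background. YTHDF2-ADAR minus YTHDF1-ADAR called 1 gene higher, NDRG1, and 0 lower, where 0.545% of all genes were higher and 1.28% lower. NDRG1 had 141, 123 and 126 CPM in YTHDF2-ADAR cells and 55.6, 56.3 and 44.1 CPM in YTHDF1-ADAR cells, a log2 difference of 1.32 ± 0.21 (SE, edgeR adjusted p = 0.0018). YTHDF3-ADAR minus YTHDF1-ADAR called 8 higher and 7 lower, where 11.6% of all genes were higher and 6.52% lower. YTHDF3-ADAR minus YTHDF2-ADAR called 9 higher and 7 lower, where 15.2% were higher and 7.57% lower. Fitted on the compared libraries alone, these contrasts called 0 and 0, and 4 and 2. Of all genes 0.855% and 0.558%, and 4.7% and 1.35%, were called in that way. Without YTHDF3-ADAR total RNA replicate 1 these contrasts called 13 higher and 17 lower, and 14 higher and 17 lower. There 19.9% and 16.8%, and 22.1% and 19.3%, of all genes were called. They called, without replicate 2 or 3 of that group, 3 or 4 higher and 2 to 4 lower, where 3.81% to 7.14% of all genes were higher and 2.20% to 2.39% lower. YTHDF3-ADAR minus YTHDF1-ADAR called 5 higher when total RNA replicate 1, 2 or 3 of YTHDF1-ADAR cells was left out, with 4, 6 and 2 lower, where 4.81% to 6.82% of all genes were higher and 3.09% to 4.24% lower. YTHDF3-ADAR minus YTHDF2-ADAR called 6 higher without total RNA replicate 2 or 3 of YTHDF2-ADAR cells, with 3 and 5 lower, where 7.66% and 8.74% of all genes were higher and 3.42% and 3.72% lower.

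CDT1, which licenses DNA replication origins, NRN1 and PLEKHH3 were higher in total RNA of YTHDF3-ADAR cells than in both other lines. NRN1 had 49.8, 85.7 and 81.0 CPM in YTHDF3-ADAR cells, 39.2, 35.4 and 38.1 CPM in YTHDF2-ADAR cells and 38.3, 37.7 and 35.0 CPM in YTHDF1-ADAR cells. CDT1 had 114, 279 and 281 CPM in YTHDF3-ADAR cells, against 114, 119 and 108 CPM in YTHDF1-ADAR cells, so replicate 1 of YTHDF3-ADAR cells lay with the other line. GPM6A had 16.6, 23.1 and 23.4 CPM in YTHDF3-ADAR cells and 12.6, 3.48 and 8.39 CPM in YTHDF2-ADAR cells, a log2 difference of 1.38 ± 0.44 (SE, edgeR adjusted p = 0.035) that was lost without replicate 2 or 3 of either line. In the other direction, AP1S2, ATP5PF, RAB12 and MSI2, which encodes the RNA-binding protein Musashi-2, were lower in YTHDF3-ADAR cells than in both other lines. COPS5 was lower in YTHDF3-ADAR than in YTHDF1-ADAR cells by 0.63 ± 0.12 on the log2 scale (SE, edgeR adjusted p = 0.0028).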

How the data were processed

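The submitters' processing notes name the build GRCh38 and the tools DESeq2, featureCounts 2.0.1 and STAR 2.7.7. Not given in the sources used here were the site caller, strand setting and annotation release. Per gene, the authors deposited counts of reads per gene, not normalized, for 60675 human gene rows and 1 row that names no human gene, which was left out (under 0.0001% of each library). The deposited editing tables hold a score and a number of sites per gene and fraction, the natural log of the odds ratio and an adjusted p-value. The deposited comparison table, which holds a signal (baseMean), a log2 fold change, a test score and p-values of a comparison that is not named, was used for gene symbols only.

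Score divided by sites is editing per site; the recomputed log odds ratio differed from the deposited one by at most 5.62e-08. Counts were analysed with edgeR 4.0.16 in R 4.3.3: filterByExpr over 6 groups (minimum count 10, 26804 genes), TMM factors and a robust quasi-likelihood fit of the 6 group means, Benjamini-Hochberg adjusted p under 0.05; the fit was tested on simulated data. All 71 genes passed the filter, as did 3537 of the 3560 scored genes. The SE is the log2 fold change over the root of its F statistic. Alternatives were DESeq2 1.42.0 and its size factors, no factors, no filter, only the libraries compared, a replicate block and each library left out. Depth was 42699303 to 67549159 counts per library; reads carry no molecular identifiers, so counts are not independent molecules and errors cover these libraries only. Replicate pairs differed beyond sampling noise (lowest chi-square over its degrees of freedom, 7.01). In total RNA, replicate 1 against 2 and 3 gave 169 and 219 with YTHDF1-ADAR, where 2 against 3 gave 28.6. It gave 76.9 and 58.0 with YTHDF2-ADAR, against 7.01, and 144 and 139 with YTHDF3-ADAR, against 17.0. On polysomes of YTHDF3-ADAR cells it gave 132 and 128, against 41.3. In the polysome libraries of YTHDF1-ADAR and YTHDF2-ADAR cells replicate 1 did not stand apart. Within a line, polysome and total RNA libraries with the same number deviated together (r of 0.18 to 0.69 in 9 of 9 pairs, above 0.1), so the number was taken to pair them within a line. Differently numbered pairs had r of -0.72 to 0.61, 4 of 18 above 0.1, and 6 of 9 polysome libraries correlated best with the total RNA library of their own number.

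The genes and the lists were chosen with earlier results of these data known, and the roles were assigned after values were seen. Named genes are the 10 with the lowest mean ratio, the 5 with most sites, up to 6 with the highest and 6 with the lowest mean fold change of those called the same way in every line, up to 5 largest changes per contrast between lines, up to 3 per family and 3 on each side of the limit; others, such as OSBPL8, LIN7B, EFNB3, MTMR3, HPRT1, ACTR2, COPS4, SUCLA2, TUBB, BRICD5 and MSI2, were named after their values were seen.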

Additional observations from a re-analysis of the deposited data

How the results depend on the processing

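The number of genes depends on the rule. A limit of -0.3 gave 295 genes and -0.7 gave 12. At least 3 sites with each fusion left 30 and at least 5 left 16. A difference of 5 percentage points or more gave 5, the authors' own adjusted p with all 3 fusions gave 0, and the limit met with at least 2 fusions gave 553. In the 30 genes with at least 3 sites, median editing was 0.777% on polysomes and 1.94% in total RNA with YTHDF1-ADAR, 0.761% and 1.60% with YTHDF2-ADAR, and 1.36% and 2.71% with YTHDF3-ADAR, with log odds ratios of -0.77, -0.66 and -0.68.

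Without TMM factors, 64, 55 and 53 genes rose on polysomes in YTHDF1-, YTHDF2- and YTHDF3-ADAR cells and 0 fell in each, where 40.6%, 33.9% and 25.3% of all genes rose. In total RNA 23 were then higher and 1 lower for YTHDF3-ADAR minus YTHDF1-ADAR, against 25.3% and 1.99% of all genes. For YTHDF3-ADAR minus YTHDF2-ADAR 20 were higher and 1 lower, against 24.6% and 2.08% of all genes. Without the filter 11 rose with YTHDF2-ADAR, 2 fell with YTHDF3-ADAR, and 4 were higher for YTHDF3-ADAR minus YTHDF1-ADAR. Of all genes 1.99% rose, 4.68% fell and 3.89% were higher in the same comparisons. Fitted on the compared libraries alone, 0 rose and 0 fell with YTHDF3-ADAR, against 0% and 0.879% of all genes. In total RNA this fit called 1 gene lower for YTHDF2-ADAR minus YTHDF1-ADAR, against 2.81% of all genes. When YTHDF3-ADAR was set against YTHDF1-ADAR it called 0 and 0, against 0.855% and 0.558% of all genes. For YTHDF3-ADAR minus YTHDF2-ADAR it called 4 higher and 2 lower, against 4.7% and 1.35%. DESeq2 called 11 lower in the last contrast, where 11.5% of all genes were lower. The cause was not tested. The replicate block gave 41 and 34 genes that rose with YTHDF1-ADAR and YTHDF2-ADAR, against 18.7% and 15.5% of all genes. Other counts stayed within 1.5 times.

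Leaving out 1 library, 16 to 22 genes rose and 0 to 1 fell with YTHDF1-ADAR, 3 to 15 rose and 0 to 1 fell with YTHDF2-ADAR, and 13 to 44 rose and 1 to 4 fell with YTHDF3-ADAR. In total RNA, YTHDF3-ADAR minus YTHDF1-ADAR gave 4 to 13 higher and 2 to 17 lower, and YTHDF3-ADAR minus YTHDF2-ADAR 3 to 14 higher and 2 to 17 lower. The share of all genes called also moved with the library left out, as given above for the fits with the fewest genes that rose. The median of the 71 genes minus that of all genes tested ran from 0.30 to 0.39, 0.24 to 0.32 and 0.36 to 0.48 in YTHDF1-, YTHDF2- and YTHDF3-ADAR cells, and against scored genes it was 0.16 with YTHDF2-ADAR. The 71 genes had 116 called fold changes. Over the alternatives 997 refits kept the call, 394 lost it and 1 changed sign, MTMR3 in YTHDF3-ADAR cells at 0.057 without TMM factors; 64 were lost on the compared libraries alone and 1 with the replicate block. The depth behind the editing scores is unknown, which limits every editing value, and so does the single site behind many of them.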
